A study of Mus musculus with 36 samples.

Results

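The effect of the knock-in was examined in epididymal white adipose tissue (eWAT) of mice that were fed the fattier of the study's high-fat diets and also had periodontitis induced. Of the 36 libraries of the series, the 6 labelled with that diet and the ligature were compared, 3 from CCL19-KI and 3 from wild-type (WT) mice. They were chosen by their labels alone, and no measured value entered the choice. All 6 animals were male, were fed a 60% high-fat diet (60% HFD) for 10 weeks, received a ligature around a molar at 14 weeks of age after 8 weeks on the diet, and kept it for 2 weeks. The CCL19-KI mice are Adipoq-CCL19-KI animals, in which a *Ccl19* sequence was inserted at the *Adipoq* locus by genome editing so that adipocytes, which use that locus, produce the chemokine. The line was kept as homozygotes by intercrossing, whereas the WT mice were C57BL/6 animals, so the knock-in and any other difference between the colonies cannot be told apart. The other 30 libraries come from mice of both genotypes that were fed a normal diet (ND) or a 40% HFD, or that had no ligature according to their labels. The design text of the series describes a ligature without naming groups that lacked it, so which mice had none rests on the sample labels. These 30 libraries are used here only to set the knock-in effect of this pair of groups beside that of the other 5.

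CCL19 is a homeostatic chemokine of lymph nodes that, together with CCL21, draws dendritic cells and lymphocytes bearing the receptor CCR7. Adiponectin, the product of *Adipoq*, is secreted by adipocytes and is known for its association with insulin sensitivity, and it usually declines as fat tissue expands. A ligature around a tooth collects plaque and brings about local periodontitis, while a high-fat diet enlarges the epididymal fat pad and draws macrophages into it.

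The 6 libraries held 12009475 to 21581595 reads assigned to genes, within the range of the whole series (11962228 to 21581595), and 1 read was worth 0.0490 to 0.0803 units of normalized CPM (reads per gene after scaling for library size by the authors). Replicates differed from each other by far more than sampling noise, with a chi-square per degree of freedom of 31.1 to 107, so each library was counted as a separate sample. All 6 carried the *Ccl19* signal that their genotype label calls for. Outside these groups 2 libraries did not: replicate 2 of WT mice fed an ND without ligature carried *Ccl19* and *Gm2564* at 19.2 and 41.9 normalized CPM, and replicate 3 of CCL19-KI mice fed a 60% HFD without ligature had them at 0.687 and 0. Fold changes and ranges that rest on either of these libraries are given with and without it, a choice made after seeing the data.

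*Ccl19* cannot be read alone, because the mouse genome holds near-identical copies of it on chromosome 4. In the reference sequence (GRCm38), the coding sequences of *Ccl19* (chr4:42754525-42756577, minus strand) and of *Gm2564* (chr4:42629719-42631714, plus strand) were identical at 323 of 324 bases. The only difference was T2C, counted from 1 at the first coding base, which lies in the start codon of *Ccl19*. The first coding exons, at chr4:42756270-42756330 (minus strand) and chr4:42629894-42629954 (plus strand), are shown because they hold the base at which the coding sequences differ. It is the only base in capitals.
Ccl19: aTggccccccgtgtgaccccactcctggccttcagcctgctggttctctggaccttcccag
Gm2564: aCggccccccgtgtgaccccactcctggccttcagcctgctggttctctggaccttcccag
The second coding exon of 133 bases was the same in *Ccl19*, *Gm2564* and *Ccl19-ps3*, at chr4:42755168-42755300 (minus strand), chr4:42630939-42631071 and chr4:42133601-42133733 (plus strand). It is shown as an example of sequence in which a read cannot be assigned to 1 of them.
Exon 2 of all 3 copies: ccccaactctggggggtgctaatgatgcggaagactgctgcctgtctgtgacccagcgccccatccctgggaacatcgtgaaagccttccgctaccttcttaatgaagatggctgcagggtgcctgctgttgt
Of the 31-base words of the annotated transcripts, 77.7% of those of *Gm2564* and 100% of those of *Ccl19-ps3* also occur in *Ccl19*. The split of reads between these genes therefore depended on the counting of the authors, and the sum of the 3 was examined as well.

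*Ccl19* was at 22.7, 11.8 and 27.1 normalized CPM in CCL19-KI replicates 1 to 3, and at 1.296, 0.963 and 1.07 in the same order of WT replicates. *Gm2564* was at 64.1, 28.2 and 55.1 in CCL19-KI mice without a read in any of the 3 WT libraries. *Ccl19-ps3*, annotated as a pseudogene, was at 1.37, 2.66 and 14.5 against no read in WT mice. For each of these genes every CCL19-KI mouse lay above every WT mouse, and replicate 2 had the lowest *Ccl19* and *Gm2564* of the knock-in group. The means of *Ccl19* were 20.5 ± 7.91 and 1.11 ± 0.169 (SD, n = 3), a ratio of 18.5 and a log2 fold change of 3.28 ± 0.41 (SE, adjusted p = 0.00652, limma). Taking 3 reads per WT library as the limit that a count of 0 allows, the difference was at least 236-fold for *Gm2564*. For *Ccl19-ps3* it was at least 29.6-fold. On the log2(normalized CPM + 1) scale of the fit, *Gm2564* differed by 5.57 ± 0.33 (adjusted p = 9.59e-07), a size that depends on the 1 added.

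Summed over the 3 genes, the signal was 88.2, 42.7 and 96.7 normalized CPM with the knock-in and 1.296, 0.963 and 1.07 without it. The sums were 75.9 ± 29.1 and 1.11 ± 0.169 (SD, n = 3), 68.3-fold apart, with an exact two-sided permutation p of 0.1, the smallest that 3 mice against 3 allow. In the CCL19-KI mice, reads assigned to *Ccl19* itself made up 25.7 to 28.0% of the sum, and those assigned to *Gm2564* made up 57.0 to 72.7%. The share of *Ccl19* thus hardly moved between mice, although the sum differed more than 2-fold between replicates 2 and 3.

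**Figure D1:**
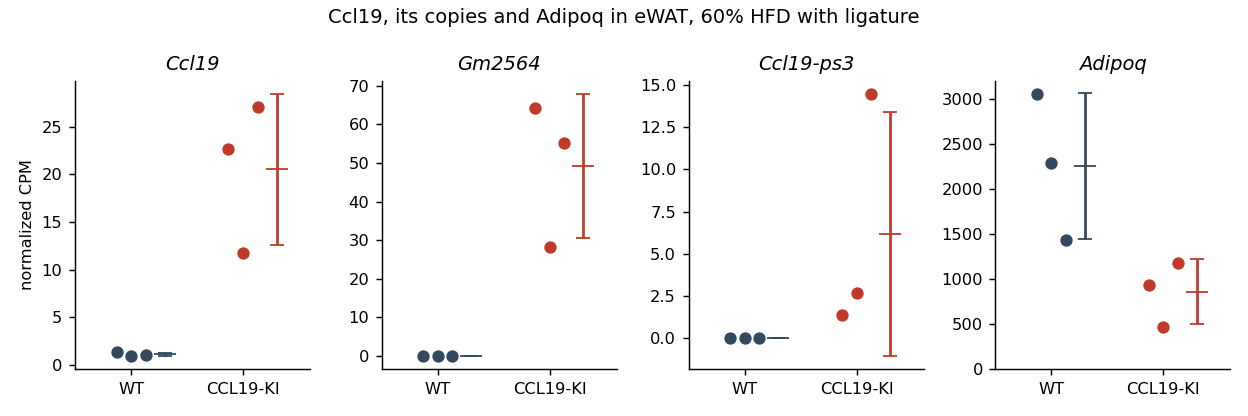
Normalized CPM (vertical axes, from 0) of *Ccl19*, *Gm2564*, *Ccl19-ps3* and *Adipoq* in ligatured mice of both genotypes on a 60% HFD, 1 point per mouse, with the mean and SD of each group of 3. The 3 *Ccl19* copies lie higher in every CCL19-KI mouse, whereas *Adipoq* lies at 470 to 1178 in CCL19-KI and 1435 to 3059 in WT mice.

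*Adipoq* (chr16:23146536-23158028, plus strand), the gene at whose locus the insertion was made, was at 929, 470 and 1178 normalized CPM in CCL19-KI mice and at 3059, 2291 and 1435 in WT mice. The groups did not overlap, and the highest CCL19-KI mouse and the lowest WT mouse were close. The means were 859 ± 359 and 2261 ± 812 (SD, n = 3), with a log2 fold change of -1.43 ± 0.37 (SE). The difference met the criteria of the study for a differentially expressed gene, which are given below, but not the threshold after adjustment over all genes (limma adjusted p = 0.499). The endogenous gene was not meant to be disrupted by the insertion, and the deposited gene counts do not separate transcripts of the edited and the unedited sequence. The 250 bases before its start (RefSeq, GRCm38.p6, chr16:23146286-23146535, plus strand) are shown because the inserted *Ccl19* lies at the locus they precede, with the letters CCAAT on either strand in capitals (as ATTGG where the match is on the minus strand).
Adipoq promoter: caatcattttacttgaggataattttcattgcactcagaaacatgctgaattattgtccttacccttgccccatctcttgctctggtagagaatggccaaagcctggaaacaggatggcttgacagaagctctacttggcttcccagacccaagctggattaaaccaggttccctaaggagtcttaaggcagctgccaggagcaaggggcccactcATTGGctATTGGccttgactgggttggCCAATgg
The 3 matches lie 34 to 30, 27 to 23 and 7 to 3 bases before the start. Of 32851 promoters of the same length, 33.8% hold at least 1 such match and 2.79% hold 3 or more.

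*Ccr7*, which encodes the receptor of CCL19, was at 1.62, 1.22 and 1.12 normalized CPM in CCL19-KI mice and at 1.296, 1.20 and 1.52 in WT mice. The groups overlapped fully, with a log2 fold change of -0.02 ± 0.30 (SE). *Ccl21a*, the other ligand of the receptor, was at 12.7, 0.388 and 44.4 against 0, 2.49 and 1.26. It was high in 2 of 3 CCL19-KI mice and lower than in 2 WT mice in the remaining one, and did not meet the criteria (limma adjusted p = 0.987). Genes of inflammatory signals also overlapped between the groups. *Tnf* was at 1.08, 1.498 and 0.373 against 0.194, 0.963 and 1.26, *Ccl2*, a chemokine for monocytes, at 7.21, 7.27 and 3.50 against 7.19, 6.90 and 4.67, and *Spp1*, which encodes osteopontin, at 9.81, 35.2 and 3.95 against 3.11, 14.5 and 46.7. *Il1b* did not pass the filter on low values, with at most 0.444 in CCL19-KI and at most 0.947 in WT mice. Of 17 genes of cytokines and chemokines that passed the filter, *Cxcl9* alone met the criteria and was higher, against 1.62% of all genes. Its log2 fold change was 0.77 with overlapping groups, and the median difference of the 17 genes was -0.00.

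Across the transcriptome, 349 of 16653 genes tested met the criteria of the study (a p of 0.05 or less, together with a ratio from 1.5 upwards or from 0.67 downwards), which is 2.1% of them. There were 269 higher in CCL19-KI mice (1.62%) and 80 lower (0.48%), and 223 and 52 of these had groups that did not overlap. The share of all genes whose groups did not overlap was 12.1%, with 7.28% higher and 4.81% lower. The number with an unadjusted p below 0.05 was 771 (4.63%). After adjustment, 13 genes (0.0781%) stayed below 0.05, all of them higher in CCL19-KI mice. In a count model on the recovered reads (edgeR quasi-likelihood test), 459 genes met the criteria (2.76%) and 7 passed after adjustment (0.042%), and 292 and 7 of these were shared with limma. The limma p-values rest on the spread between mice within all ligatured groups of the series, not only within the groups compared here. With tissue RNA, fewer cells of a type and less RNA per cell cannot be told apart, and this holds for each gene group below.

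**Figure D2:**
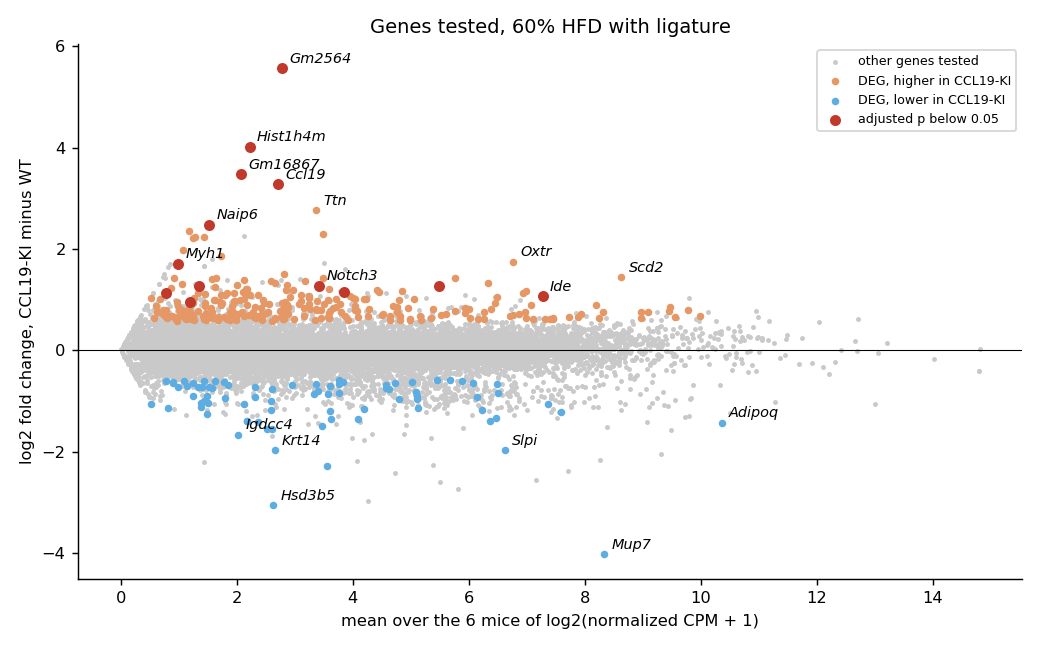
Log2 fold change, CCL19-KI over WT (vertical axis) against the mean level in log2(normalized CPM + 1) (horizontal axis), 1 point per gene tested, ligatured mice fed a 60% HFD. Genes that met the criteria (269 higher, 80 lower) and the 13 that passed after adjustment are coloured, and the latter all lie above 0.

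Of the 13 genes, the widest log2 fold changes after *Gm2564* were those of *Hist1h4m* and *Gm16867*. *Hist1h4m*, a gene of histone H4 (chr13:21811746-21812147), was at 10.1, 30.6 and 18.1 normalized CPM in CCL19-KI mice and at 0, 0 and 0.568 in WT mice (log2 fold change 4.02 ± 0.31, SE, adjusted p = 1.62e-05). Of its 31-base words, 91.7% also occur in *Hist1h4n*, which differed in the opposite direction, at 19.4, 36.1 and 21.3 against 40.9, 49.6 and 43.2. The pair summed to 29.5, 66.6 and 39.4 in CCL19-KI and 40.9, 49.6 and 43.8 in WT mice, so that the groups overlapped and the ratio was 1.01 (exact two-sided permutation p = 0.8). *Hist1h4n* was named after its values were seen, like *Naip5*, *Gm27177*, *Entpd4*, *Entpd4b*, *Srp54a*, *Srp54b*, *Srp54c*, *Fgfbp3*, *March5*, *Sox18* and *Maoa* below.

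*Gm16867* (chr14:69363504-69503362, minus strand) was at 14.6, 15.5 and 9.91 normalized CPM in CCL19-KI mice and at 0, 0 and 1.01 in WT mice (log2 fold change 3.48, adjusted p = 0.0196). The groups were far apart, and the same held for its sum with *Gm27177*, which shares 88% of its words (15.1, 16.3 and 14.5 against 0.518, 0.883 and 2.78, an 11.0-fold difference). *Gm21451* lies inside it on the other strand and met the criteria as well, with a log2 fold change of 2.24, and whether the counting used the strand is not stated. Of the words of *Gm21451*, 84.4% also occur in *Loxl2*. *Entpd4* and *Entpd4b*, genes of a nucleotide-hydrolysing enzyme of the Golgi and lysosome that share all of their words and lie within 500 kb, summed to 71.6, 72.8 and 70.3 against 34.1, 33.2 and 35.5. Both groups were tight and far apart, with a ratio of 2.09. Of the 12 genes tested in this neighbourhood, 3 met the criteria and were higher, against 1.62% of all genes. These are *Entpd4*, *Entpd4b* and *Gm21451*, copies or overlapping loci whose reads are not independent.

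*Naip6* encodes a member of a family of cytosolic receptors for bacterial proteins, whose genes lie side by side on chromosome 13 (chr13:100281121-100317674 for *Naip6*). It was at 5.44, 7.16 and 5.07 normalized CPM in CCL19-KI mice and at 0.194, 0.161 and 0.316 in WT mice (log2 fold change 2.48 ± 0.37, SE, adjusted p = 0.0159). Summed with *Naip5*, with which it shares 28% of its words, it was at 12.6, 16.2 and 11.5 against 7.52, 7.47 and 5.68, a ratio of 1.95 without overlap. None of the 19 genes tested within 500 kb of *Naip6* met the criteria.

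*Fam177a* (chr12:55124469-55142104) was at 62.3, 59.3 and 89.8 normalized CPM in CCL19-KI mice against 27.3, 30.3 and 26.6 in WT mice (log2 fold change 1.27 ± 0.22, SE, adjusted p = 0.045). Of its words, 98.5% occur in *1700047I17Rik2*, a gene for which no row was analysed here. In the same neighbourhood, *Srp54a*, *Srp54b* and *Srp54c*, which encode copies of a subunit of the signal recognition particle, summed to 179, 187 and 192 against 121, 109 and 121. Every CCL19-KI sum lay above every WT sum, with a ratio of 1.596.

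*Ide* encodes the insulin-degrading enzyme, a metalloprotease that cleaves insulin and other small peptides. It was at 243, 222 and 209 normalized CPM in CCL19-KI mice and at 98.2, 95.4 and 128 in WT mice, without overlap. The means were 225 ± 16.7 and 107 ± 17.8 (SD, n = 3), and the log2 fold change was 1.07 ± 0.16 (SE, adjusted p = 0.0159). *Ide* (chr19:37268743-37337852, minus strand) shares at most 0.279% of its words with any other gene, so copies bear little on this value. Of the 9 genes tested within 500 kb of it, 1 met the criteria and was higher, against 1.62% of all genes. This was *Fgfbp3* (1.77, 1.498 and 0.969 against 0.648, 0.401 and 0.505), while *March5* differed by -0.04 on the log2 scale. *Fgfbp3* lost the call without CCL19-KI replicate 1 or 2, without WT replicate 2, and with 5 added before the logarithm.

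The other genes that passed after adjustment include *Notch3*, a Notch receptor of the mural cells that wrap small vessels. It was at 15.3, 12.7 and 20.0 normalized CPM in CCL19-KI mice and at 5.25, 6.10 and 6.44 in WT mice (log2 fold change 1.28, adjusted p = 0.0193). *Kcna5*, a voltage-gated potassium channel of vascular and cardiac muscle, was at 3.68, 2.39 and 2.98 against 0.713, 0.482 and 0.758 (log2 fold change 1.27, adjusted p = 0.0118). *Trp53i11*, named as a gene induced by p53, was at 21.1, 17.5 and 23.2 against 6.15, 13.2 and 8.14 (log2 fold change 1.14, adjusted p = 0.045). In all 3 genes the groups were separate, with replicate 2 of the WT mice nearest to the CCL19-KI mice for *Trp53i11*.

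*Myh1*, the myosin heavy chain of a fast type of skeletal muscle fibre, was at 1.81, 3.44 and 2.76 normalized CPM against 0.0648, 0 and 0.253 (log2 fold change 1.71, adjusted p = 0.0118). *Mstn*, which encodes myostatin, an inhibitor of muscle growth, was at 1.77, 1.66 and 1.27 against 0.0648, 0.241 and 0.189 (log2 fold change 1.14, adjusted p = 0.0115). *Gm43366*, annotated only as a locus that awaits experimental evidence, was at 2.21, 2.05 and 2.31 against 0.518, 0.482 and 0.947 (log2 fold change 0.96, adjusted p = 0.0197). All 3 were low in both groups, with at most 3.44 in any mouse, and separate between them. For *Mstn* and *Gm43366*, the 3 CCL19-KI mice of this pair were the only ligatured mice to reach 1 normalized CPM. Both thus passed the filter on low values only through the group in which they were high. Their adjusted p is therefore not independent of that filter.

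**Figure D3:**
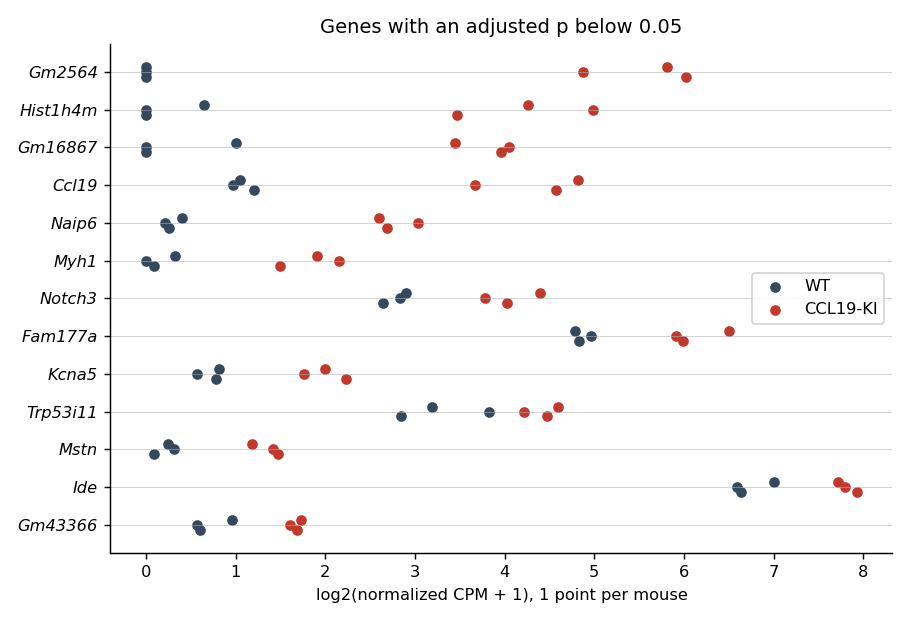
Level of the 13 genes that passed after adjustment, in log2(normalized CPM + 1) (horizontal axis), 1 point per mouse, in ligatured mice of both genotypes on a 60% HFD. In each gene the 3 CCL19-KI mice lie above the 3 WT mice, with *Ide* and *Fam177a* the most abundant and *Gm2564* the widest apart.

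Set beside the other 5 pairs of groups, these genes fell into different patterns, which are given as values without a test across pairs. The log2 fold change of *Gm2564* was 5.57 here and 5.93, 5.46, 2.55, 5.45 and 3.02 in the pairs with a 40% HFD and ligature, an ND and ligature, a 60% HFD, a 40% HFD and an ND. For *Ide* it was 1.07 here and 1.24, 0.86, 0.42, 0.72 and 0.96 in the same order. For *Naip6* it was 2.48 here and 2.50, 1.27, 1.86, 2.49 and 1.84. These 3 genes were higher in CCL19-KI mice in each of the 6 pairs. The 2 libraries that go against their labels lie in the pairs with a 60% HFD and with an ND without ligature. Without them the values of these pairs were 3.83 and 4.83 for *Gm2564*, 0.62 and 1.42 for *Ide* and 2.79 and 2.57 for *Naip6*.

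Over all 15 other CCL19-KI and 15 other WT mice, *Gm2564* ranged from 0 to 108 and from 0 to 41.9 normalized CPM, and without the 2 libraries from 11.7 to 108 and from 0 to 0.16. *Naip6* ranged from 0.0982 to 7.74 and from 0 to 4.56, and without the 2 libraries the lowest CCL19-KI mouse was at 4.596. Both genes thus overlapped between all mice and were separate without the 2 libraries, *Naip6* by a very narrow margin. *Ide* ranged from 118 to 263 (median 173) against 65.6 to 200.2 (median 81.0), and without the 2 libraries from 118 to 263 (median 174) against 65.6 to 183 (median 80.3), with overlap either way. *Adipoq* ranged from 300.1 to 1246 against 615 to 3937 either way, with medians of 584 and 2354 over all mice and 578 and 2568 without the 2 libraries.

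Several other genes of the 13 varied between pairs in size, and all of those given here except *Fam177a* also in direction. The log2 fold change of *Myh1* was 1.71 here and 0.10, 1.97, 0.17, 0.01 and -1.10 elsewhere, and 0.32 and -1.30 in the third and the last of these without the 2 libraries. For *Kcna5* it was 1.27 here and -0.05, 0.76, 0.24, 0.84 and -1.06 elsewhere (-0.25 and -0.92 without). For *Mstn* it was 1.14 here and 0.20, 0.17, -0.59, 0.63 and -0.73 elsewhere (-0.41 and -1.08 without). These 3 genes thus lay on both sides of 0, and *Kcna5* changed sign in the pair with a 60% HFD without ligature when its library was left out. *Notch3* was at 1.28 here and at 0.43, 1.24, 1.08, 1.09 and -1.08 elsewhere (0.19 and -0.74 without). *Fam177a* was at 1.27 here and at 0.67, 0.33, 1.08, 1.33 and 0.03 elsewhere (1.44 and 0.05 without). *Gm43366* was at 0.96 here and between -0.16 and 0.24 in the other pairs. The effect on *Adipoq* was -1.43 here and -1.97, -2.19, -2.03, -0.87 and -2.04 elsewhere (-2.57 and -2.62 without), lower in CCL19-KI mice in every pair.

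**Figure D4:**
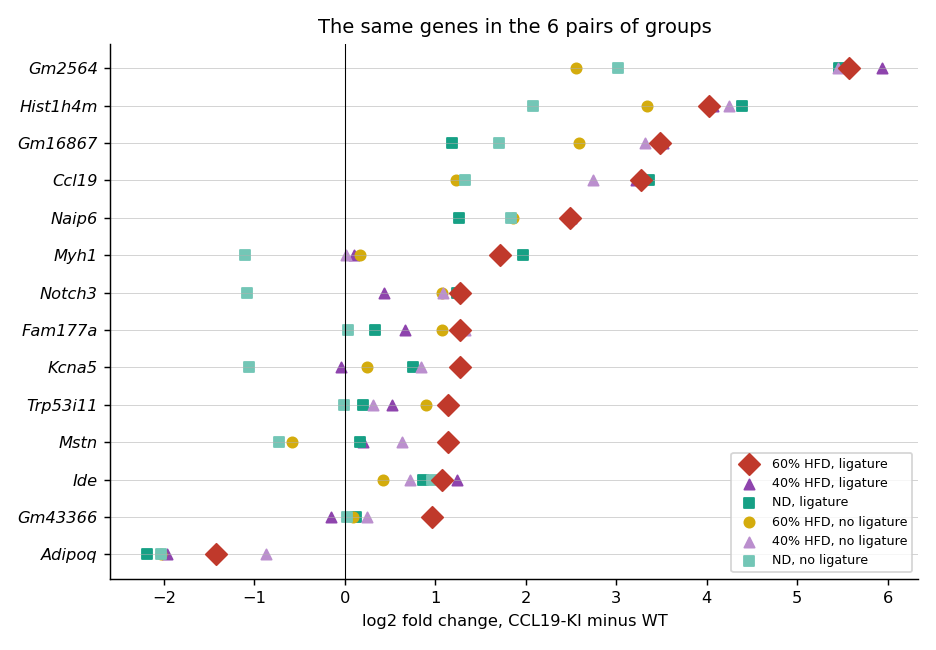
Log2 fold change, CCL19-KI over WT (horizontal axis), of the 13 genes and *Adipoq* in each of the 6 pairs of groups, 1 point per pair of 3 against 3 mice with every library included. *Gm2564*, *Hist1h4m*, *Ccl19*, *Gm16867*, *Naip6*, *Ide* and *Fam177a* lie above 0 in all 6 pairs, *Fam177a* at 0.03 in the lowest. *Adipoq* lies below 0 in all 6, and *Myh1*, *Kcna5* and *Mstn* lie on both sides.

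Among genes with large differences that did not pass after adjustment, *Oxtr*, which encodes the oxytocin receptor, was at 192, 187 and 216 normalized CPM in CCL19-KI mice and at 47.1, 57.3 and 72.6 in WT mice. The groups lay far apart, with a log2 fold change of 1.75 (adjusted p = 0.984, the spread being estimated over all 18 ligatured mice). *Otop1*, a proton channel, was at 10.8, 9.76 and 12.1 against 1.36, 5.94 and 3.47 (log2 fold change 1.503, adjusted p = 0.183). *Cck*, which encodes cholecystokinin, was at 1.27, 2.33 and 17.1 against 0, 0.0803 and 0.253 (log2 fold change 2.22), and replicate 3 held most of it. *Sox18*, a transcription factor of endothelium, was at 4.76, 3.99 and 4.10 against 1.296, 1.20 and 1.70 (log2 fold change 1.14, adjusted p = 0.0554). *Maoa*, which encodes monoamine oxidase A, was at 93.5, 96.8 and 108 against 56.2, 61.8 and 56.1 (log2 fold change 0.76, adjusted p = 0.0631). Of these 5 genes the groups were separate in each.

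Several genes of blood vessels were higher in the CCL19-KI mice. Of 16 endothelial genes, all of which passed the filter, 6 met the criteria and all 6 were higher, against 1.62% of all genes, and the median log2 fold change was 0.57 against -0.003 over all genes tested. *Pecam1*, the adhesion molecule CD31, was at 36.2, 22.5 and 39.5 normalized CPM in CCL19-KI mice and at 13.5, 11.4 and 16.8 in WT mice (log2 fold change 1.16 ± 0.29, SE). *Cdh5*, the cadherin of endothelial junctions, was at 51.9, 27.2 and 53.0 against 16.6, 15.8 and 23.4 (log2 fold change 1.16 ± 0.30). In both genes the groups were separate, with replicate 2 the lowest of the CCL19-KI mice. The receptor *Tie1* (log2 fold change 1.08), *Emcn* (1.00), the VEGF receptor *Flt1* (0.80) and *Egfl7* (0.63) were the other 4. The summed level of the 16 genes was 516, 385 and 402 in CCL19-KI and 303, 334 and 378 in WT mice, with little room between the groups. When 1 mouse at a time was left out, 4 to 6 of the 16 met the criteria.

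Among 13 genes of smooth muscle and mural cells, 3 met the criteria, all higher, against 1.62% of all genes, and all 13 had a positive difference with a median of 0.80. The count was 5 without CCL19-KI replicate 2, and 2 or 3 without any other mouse. Besides *Notch3*, these were *Rgs5*, a marker of pericytes, at 90.2, 64.4 and 91.9 normalized CPM against 52.9, 36.8 and 46.5, and *Cspg4*, the proteoglycan NG2, at 30.9, 21.4 and 39.2 against 20.7, 21.3 and 16.0. *Cspg4* was separate between the groups by a narrow margin, and *Rgs5* by a wider one. Of 23 collagen and matrix genes on the list, 2 met the criteria, both higher, against 1.62% of all genes, and these encode chains of the collagen of basement membranes. *Col4a1* was at 1194, 973 and 1847 against 921, 735 and 773, and *Col4a2* at 913, 679 and 1415 against 538, 480 and 564. The median of the 23 was 0.23, and the count was 0 when replicate 3 of the CCL19-KI mice was left out, 6 when their replicate 2 was, and 1 without WT replicate 2.

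Several genes of skeletal muscle were higher in the same libraries. Of 36 listed genes, 27 passed the filter, and 8 of these met the criteria, all higher, against 1.62% of all genes. The median log2 fold change was 0.68. *Ttn*, which encodes the giant sarcomere protein titin, was at 17.9, 31.1 and 30.8 normalized CPM in CCL19-KI mice and at 1.17, 2.65 and 6.82 in WT mice (log2 fold change 2.76, adjusted p = 0.635). *Atp2a1*, the calcium pump of fast muscle, was at 3.29, 4.88 and 7.08 against 0.0648, 0.482 and 0.253, and *Ckm*, muscle creatine kinase, at 2.06, 3.05 and 4.99 against 0, 0 and 0.189. Replicate 3 was the highest CCL19-KI mouse for both, and the groups were far apart. *Mb* (myoglobin, log2 fold change 1.11), *Tnnt3* (a fast troponin, 1.42), *Cmya5* (0.68) and *Ryr1* (the calcium release channel, 0.65) followed. *Trdn*, which encodes triadin of the same calcium release complex, was at 12.2, 24.5 and 45.8 against 1.81, 4.66 and 7.26.

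The muscle genes summed to 149, 179 and 290 in CCL19-KI and 112, 92.8 and 98.6 in WT mice, and none of the 36 was at 0 in all 6 mice. Leaving out 1 mouse at a time left 4 to 8 of the 27 past the criteria, with 4 without CCL19-KI replicate 3 and 5 without WT replicate 2. In the pair with an ND and ligature, 23 of the 27 were higher, where 6.67% of all genes were. In the pair with a 40% HFD and ligature none was higher and 1 lower, where 0.432% and 1.13% of all genes were. The 27 genes were those that passed the filter in the ligatured libraries, whereas 21 passed it in the libraries without ligature. *Myh1* passed only through CCL19-KI mice of this pair and of the pair with an ND and ligature. The counts of higher genes in these 2 pairs therefore depend in part on the filter. *Myh1* and *Mstn* above belong to the same tissue, and the part of muscle fibres in their difference was not tested.

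Several genes of mesothelium, the cell layer that covers the fat pad, were lower. All 12 had a negative difference with a median of -1.11, and 4 of the 12 met the criteria, against 0.48% of all genes in that direction. *Slpi*, a secreted protease inhibitor, was at 26.8, 78.4 and 55.7 normalized CPM in CCL19-KI mice and at 130, 275 and 206 in WT mice (log2 fold change -1.97). *Msln*, which encodes mesothelin, was at 25.6, 107 and 59.2 against 121, 166 and 140 (log2 fold change -1.35), and *Gpm6a* at 21.1, 110 and 53.3 against 130, 132 and 139 (-1.40). These 3 were separate between the groups, with replicate 2 of the CCL19-KI mice nearest to the WT mice, whereas *Muc16* (-1.05) overlapped. The summed level was 314, 1205 and 596 against 1204, 1520 and 1441. The count depended on single mice, with 11 genes past the criteria without CCL19-KI replicate 2, 1 when their replicate 1 was left out and 2 without WT replicate 2. *Krt14*, a keratin of basal epithelium, was at 1.81, 2.39 and 2.38 against 7.71, 21.9 and 8.71 (log2 fold change -1.97), and was the only one of 6 keratinocyte genes to meet the criteria. Other genes among the 15 largest falls were *Igdcc4*, at 0.588, 1.55 and 1.94 against 5.64, 9.80 and 4.29 (log2 fold change -1.66, adjusted p = 0.0913), *AW551984* (-1.55), *Dmkn* (-1.55), *Pcnx2* (-1.50), *Sh3rf2* (-1.42), *Chst4* (-1.35) and *Sim2* (-1.26).

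Of 22 hepatocyte genes, 2 met the criteria, both lower, against 0.48% of all genes. All 22 had a negative difference with a median of -1.02, but this rested on single libraries, since the median was 0.0097 without CCL19-KI replicate 3 and -0.50 without WT replicate 3. *Hsd3b5*, a steroid-metabolising enzyme of male liver, was at 5.84, 0.111 and 0.298 normalized CPM in CCL19-KI mice and at 36.6, 10.2 and 12.6 in WT mice (log2 fold change -3.06). *Selenbp2* was at 11.3, 4.55 and 1.19 against 59.5, 11.7 and 21.5 (log2 fold change -2.28). Both were separate, while the summed level of the list overlapped, at 26902, 23004 and 3513 against 21020, 15613 and 46671. Of 18 genes of major urinary proteins that passed the filter, carriers of pheromones made in liver, *Mup7* alone met the criteria, at 450, 37.9 and 28.4 against 2698, 681 and 1228. Members of that family are near-identical copies, so the value of a single one is uncertain, and neither the edgeR test nor 4 of the 6 fits that left out a mouse called any of them.

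**Figure D5:**
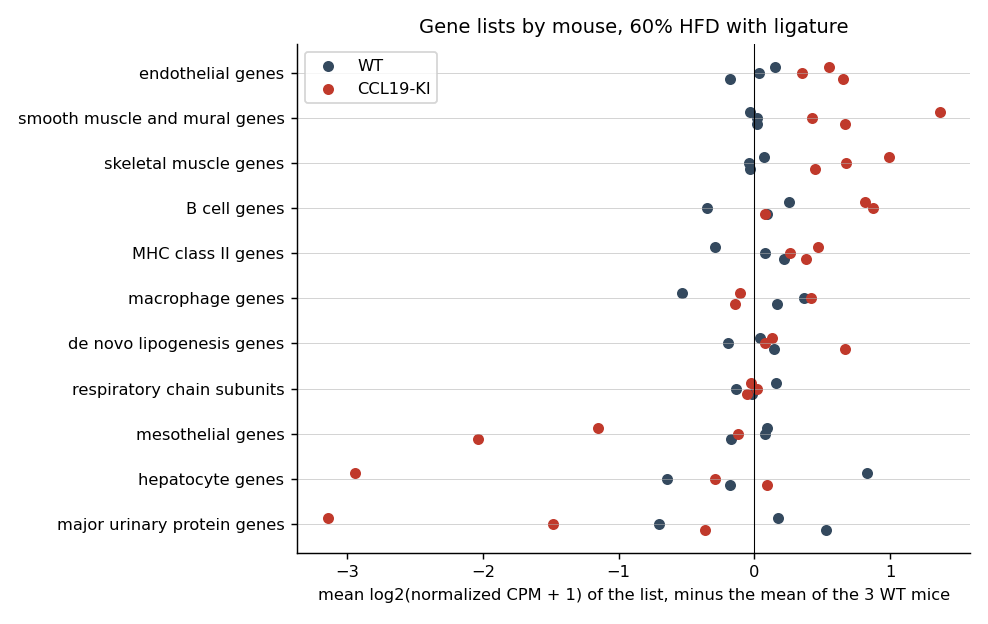
Mean log2(normalized CPM + 1) of each gene list minus the mean of the 3 WT mice (horizontal axis), 1 point per mouse, in ligatured mice fed a 60% HFD. Endothelial, mural and skeletal muscle genes lie to the right of 0 in all 3 CCL19-KI mice, mesothelial genes to the left, and macrophage and respiratory chain genes on both sides.

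Among genes of adipocyte metabolism, those of lipid synthesis stood out by single members. Of 14 genes of de novo lipogenesis, 3 met the criteria, all higher, against 1.62% of all genes, with a median of 0.25 over the list. *Scd2*, a desaturase of fatty acids, was at 850, 430 and 764 normalized CPM in CCL19-KI mice and at 262, 212 and 248 in WT mice (log2 fold change 1.44, adjusted p = 0.747). *Me1*, the malic enzyme that supplies NADPH, was at 702, 487 and 830 against 434, 365 and 363, and *Slc25a1*, the mitochondrial citrate carrier, at 243, 186 and 226 against 153, 127 and 142. All 3 were separate, with replicate 2 the lowest of the CCL19-KI mice each time. Of 14 genes of fatty acid uptake and triglyceride synthesis, *Mogat2* (log2 fold change 0.72), *Gpihbp1*, which anchors lipoprotein lipase to the capillary wall (0.67), and *Gpd1* (0.67) met the criteria and were higher, against the same 1.62%, and the count fell to 1 when replicate 1 or 3 of the CCL19-KI mice or replicate 3 of the WT mice was left out. *Lpl* itself overlapped between the groups (0.62). *Lep*, which encodes the satiety hormone leptin, was at 2547, 2728 and 2485 against 1590, 1477 and 1494. Its groups were separate, but the difference did not meet the criteria (log2 fold change 0.77, limma adjusted p = 0.987). *Adipoq* alone among 12 adipokine genes met them, and was lower, against 0.48% of all genes in that direction.

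The counts of the next lists likewise stand against 1.62% of all genes called higher and 0.48% called lower. *Cpt1b*, the form of carnitine palmitoyltransferase typical of muscle, was the only one of 21 genes of fatty acid oxidation to meet the criteria. It was at 8.43, 9.93 and 13.2 normalized CPM against 2.01, 5.62 and 4.04. *Cox8b*, a muscle and brown fat subunit of cytochrome oxidase, was the only one of 9 thermogenic genes (log2 fold change 0.86, groups overlapping). Of 9 genes of fat expansion, all of which had a positive difference, *Bmp3* met the criteria, at 145, 120 and 149 against 92.4, 96.8 and 66.6. Among 19 genes of cholesterol synthesis and handling, *Lss* was higher (log2 fold change 0.64) and *Stard4* lower (-1.14). Of the fits that left out 1 mouse, *Lss* lost the call in 2 and *Stard4* in 4, and *Stard4* also lost it with edgeR. No gene met the criteria among those of lipolysis (13), insulin signalling (13), adipocyte transcription factors (11), the respiratory chain (20), the circadian clock (15) or the unfolded protein response (15).

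Counts over the immune lists stand against 1.62% of all genes called higher and 0.48% called lower. None of 16 macrophage genes met the criteria, with a median of 0.07, and none of 18 genes of lipid-associated macrophages, with a median of 0.13. The latter summed to 14423, 11001 and 15454 normalized CPM in CCL19-KI and 9807, 8654 and 9562 in WT mice, without overlap. Such a sum follows the most abundant members. The mean log2(normalized CPM + 1) of the 18 genes overlapped, at 7.03, 7.50 and 5.98 against 5.88, 6.86 and 7.27. Of the 18, 2 were separate between the groups, both higher in CCL19-KI mice, where 7.28% of all genes were. So small a count is near that share. Of 19 lysosomal genes, *Atp6v0a1*, a subunit of the proton pump, met the criteria at 169.5, 156 and 182 against 110, 107 and 113, with a log2 fold change of 0.62 ± 0.12 (SE). *Ctsd*, which encodes cathepsin D, was at 1933, 1937 and 1886 against 1393, 1414 and 1309.7, separate but below the ratio of 1.5.

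Of 13 B cell genes, all with a positive difference and a median of 0.64, *Ighd* met the criteria at 3.24, 3.50 and 5.96 normalized CPM against 1.55, 1.28 and 1.33. The 10 genes of MHC class II, which present antigen, were all positive with a median of 0.41, and none met the criteria. *Cd74*, the invariant chain, was at 714, 603 and 808 against 696, 533 and 381, with overlap. Of 12 genes of T and NK cells, *Klrb1c* (log2 fold change 0.68) and *Trac* (0.74, groups overlapping) met them, and none of the 12 did without CCL19-KI replicate 1. Of 13 dendritic cell genes *Fscn1* did, at 19.4, 20.0 and 22.5 against 12.4, 14.4 and 11.2. Of 16 acute phase genes, *Lbp*, which encodes the binding protein of bacterial lipopolysaccharide, was at 440, 289 and 490 against 244, 218 and 184, and *Saa2* overlapped between the groups. None of 16 interferon-stimulated genes met the criteria, with a median of -0.11. None did among genes of proliferation (16), adipocyte progenitors (15), osteoclasts (8), cytochromes P450 (17), neurons (8) or erythroid cells (6). Of 10 genes that the study examined with a 40% HFD, *Ccl19* alone met the criteria here.

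Signs of other tissues differed between single libraries. Genes of germ cells summed to 30.4 normalized CPM in WT replicate 2 and to at most 0.82 in the other 5 mice, and those of epididymis to 46.8 in WT replicate 2 and at most 3.14 elsewhere. Genes of kidney tubules summed to 27.4, 392.02 and 100.4 in CCL19-KI and 200.4, 521 and 149 in WT mice. None of the 8 germ cell, 3 epididymal, 8 kidney tubule or 2 pancreatic genes that passed the filter met the criteria, and the part of these cells in other results was not tested.

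The effect of the knock-in was compared with that in other ligatured groups, and with that in mice fed a 60% HFD without ligature, by tests of the difference itself. Against the 40% HFD with ligature, no gene passed after adjustment (limma), and 755 genes (4.53%) had an unadjusted p below 0.05. The edgeR test and every other setting also gave 0. Against the ND with ligature, 39 genes passed (0.234%), with the effect more positive at a 60% HFD in 4 (0.024%) and less so in 35 (0.21%), and 9.97% of genes had an unadjusted p below 0.05. *Maoa* was one of the 4, at 93.5, 96.8 and 108 against 56.2, 61.8 and 56.1 with a 60% HFD, and at 37.4, 31.4 and 30.3 against 38.5, 36.4 and 42.9 with an ND. The groups were thus separate with a 60% HFD and overlapped with an ND, and the difference of the effects was 1.01 on the log2 scale (adjusted p = 0.0483). Against the 60% HFD without ligature 2 genes passed (0.0112%), and 3091 (17.3%) had an unadjusted p below 0.05. That comparison rests on the labels for the absence of a ligature and contains the CCL19-KI library without *Gm2564*, and without it 64 genes passed.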

How the data were processed

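RNA of eWAT was sequenced after rRNA depletion with a directional kit, and, per the authors, reads were trimmed (Trimmomatic 0.38), aligned with Bowtie2 within RSEM 1.3.0 and normalized with edgeR. The signal values deposited by the authors are normalized CPM of gene counts. Their methods name mm10 and their processing notes GRCm39, and the annotation release is not given in the sources used here. Positions are those of GENCODE M21 (GRCm38), in which 24634 of 24750 gene IDs were found. Values of each library were whole multiples of its smallest step in 100% of cases (tolerance 0.01), and so reads were recovered (1 read is 0.0490 to 0.0803 normalized CPM). The lowest total of a gene in the table was 36 reads. Since reads are not unique molecules, limits at a count of 0 cover counting error only.

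Genes that reached 1 normalized CPM in 3 or more of the 18 ligatured libraries were tested as log2(normalized CPM + 1) with limma 3.58.1 (R 4.3.3, trended prior) in 1 fit of the 6 ligatured groups, with Benjamini-Hochberg adjustment over all genes. Fold changes on this scale understate those of low genes. Recovered reads were tested with edgeR 4.0.16 as an alternative. Simulated data of 16420 genes were drawn around the mean levels of the 18 ligatured mice, with a dispersion of 0.1 set for every gene. In them limma called 67.2% of genes changed 2-fold and 98.5% of those changed 4-fold, and edgeR 70.1 and 98.5%. Of unchanged genes, 4.33% (limma) and 4.66% (edgeR) met the criteria, against 2.1% of all genes in the real comparison (limma). The dispersion was not estimated from these mice, so the simulated shares need not hold for the real data.

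Named genes were those with an adjusted p below 0.05, the 15 largest rises and 15 largest falls without overlap, the *Ccl19* copies, *Gm2564*, *Ccr7*, *Adipoq*, *Spp1*, *Tnf*, *Il1b* and *Ccl2*, and members of 43 gene lists that met the criteria, or otherwise the most abundant. The members, lists and tests were chosen with earlier results of these data known. Lists are described by counts and medians and were not tested. Groups follow the labels, which name a ligature for some groups only, whereas the design text of the series describes a ligature without naming groups that had none. Replicate numbers name mice and do not pair them.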

Additional observations from a re-analysis of the deposited data

Results flagged for a closer look

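The following 7 genes were singled out because the effect of the knock-in differed between groups by a test of the difference itself (limma, adjusted over all genes), and all were named after their values were seen. Their explanations were not examined. Differences are on the log2(normalized CPM + 1) scale, as the effect with a 60% HFD and ligature minus the effect in the other pair.

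Against an ND with ligature, 4 genes were higher. *Pmvk*, an enzyme of cholesterol synthesis, differed by 1.40 (adjusted p = 0.0313), at 23.0, 18.8 and 25.2 normalized CPM in CCL19-KI against 19.8, 14.3 and 18.4 in WT mice with a 60% HFD, and 9.37, 8.96 and 11.4 against 22.7, 24.8 and 18.2 with an ND. The groups overlapped with a 60% HFD and were separate in the other direction with an ND. *Wipi1*, a protein of autophagosome formation, differed by 0.93 (adjusted p = 0.0446), at 61.8, 59.4 and 67.9 against 52.9, 48.7 and 47.9 with a 60% HFD. *Lmna*, which encodes lamins of the nuclear envelope, differed by 0.75 (adjusted p = 0.0446), at 159, 178 and 172 against 122, 131 and 135 with a 60% HFD. Both were separate and higher with a 60% HFD and separate and lower with an ND. *Maoa* differed by 1.01 (adjusted p = 0.0483). When 1 of the 12 mice of these 4 groups was left out, *Pmvk* kept an adjusted p below 0.05 in 4 of 12 fits and *Wipi1*, *Lmna* and *Maoa* in 2 of 12. Over 10 other settings, *Pmvk* kept it in 5, *Lmna* in 4, and *Wipi1* and *Maoa* in 3.

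Of the 35 genes that were lower, *Rims1*, which encodes a protein of synaptic vesicle release, had the smallest p, with a difference of -3.97 (adjusted p = 0.000859). It was at 0.785, 0 and 0.0745 against 0, 0 and 0.126 with a 60% HFD, and at 22.7, 14.5 and 17.6 against 0, 0.0507 and 0 with an ND. The signal therefore lay in the 3 CCL19-KI mice fed an ND, and the call held in 12 of 12 fits that left out a mouse and in 6 of 9 other settings. It was lost with edgeR (adjusted p = 0.519), with all 36 mice in the fit (0.370) and with 0.1 added (0.134).

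Against a 60% HFD without ligature, *Cnbd2* differed by -2.34 (adjusted p = 0.0201), at 3.29, 4.16 and 2.68 against 2.79, 3.93 and 3.41 with ligature and 19.9, 11.0 and 28.9 against 2.08, 3.17 and 3.53 without. *St6galnac2* with the identifier ENSMUSG00000110170 differed by -2.83 (adjusted p = 0.0348), at most 0.241 in any of the 6 mice with ligature and at 16.3, 2.02 and 5.45 against 0.0670, 0 and 0.0768 without. In both, the unligatured CCL19-KI mice were the high group, and 1 of these 3 libraries lacks *Gm2564*. Without it the differences were -2.04 and -2.89 (adjusted p = 0.0270 for both). Their calls held in 6 and 3 of 12 fits that left out a mouse, and in 8 of 9 and 4 of 8 other settings. Which mice had no ligature rests on the sample labels.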

How the results depend on the processing

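For the knock-in effect with a 60% HFD and ligature, 349 genes met the criteria, 175 with 5 added before the logarithm, 180 with a mean of at least 5, 108 with a ratio of 2, and 709 with quality weights (383 higher and 326 lower, a more even split). Leaving out 1 mouse gave 239 to 744, the highest without CCL19-KI replicate 2, when 284 were lower. The 13 genes after adjustment became 2 over all 36 mice, 7 with edgeR, 6 with a mean of at least 5, 2 with the compared groups only and 31 with weights. They became 3, 6 and 2 without CCL19-KI replicates 1, 2 and 3 and 3, 6 and 9 without those of WT mice. *Mstn* and *Gm43366* did not pass the filter in the fits without a CCL19-KI mouse. The difference from an ND (39 genes) gave 0, 2, 0, 24 and 2742 in the same settings, 1 with 0.1 added and 7 to 215 leaving out 1 mouse. The difference by ligature (2 genes) gave 1 with edgeR, 1 with a mean of at least 5, 11 with the compared groups only, 1 with 0.1 added, 2095 with weights and 0 to 598 leaving out 1 mouse. The cause was not tested. Mice with the same number did not deviate together (correlations -0.064, -0.038 and -0.487). With a replicate block, 369 genes met the criteria and 11 passed after adjustment, and 29 and 7 passed for the differences from an ND and by ligature. Of 78 named genes that met the criteria, 32 did so in each of the 16 settings in which they were tested. A call was lost without at least 1 mouse in 35, and 0 turned direction. Settings whose filter removed a gene were not counted as a loss, so these counts overstate how firmly low genes held. Uncalled genes turned in places, leaving out 1 mouse: *Ccr7* from -0.11 to 0.046 (0.079 with weights), *Spp1* from -1.13 to 0.64 (0.11 with weights), *Ccl2* from -0.26 to 0.20, *March5* from -0.094 to 0.023 and *Tnf* from -0.13 to 0.39. With 3 mice a group and an assumed dispersion of 0.1 for every gene, limma called 67.2% of 2-fold changes in simulated data. Smaller changes and other dispersions were not simulated.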
